A study of Homo sapiens with 4 samples.

Results

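The genes described here encode the enzymes that copy nuclear DNA, with the clamp that holds them on the template: POLA1 and POLA2 of DNA polymerase alpha, PRIM1 and PRIM2 of primase, POLD1, POLD2 and POLD3 of DNA polymerase delta, POLE and POLE2 of DNA polymerase epsilon, and PCNA. They were picked by symbol through a rule that uses no measured value, though with earlier results of these data known, and all 10 had a row among the 20263 Ensembl gene IDs of the count table. RNA was profiled in MDA-MB-231, an established human triple-negative breast cancer cell line, kept for 24 h with Neoribocic or with DMSO, the solvent. There were 2 libraries of Neoribocic-treated cells, with totals of 41572094 and 43014212 counts for replicates 1 and 2, and 2 libraries of DMSO cells, with totals of 34774542 and 37754168. Both groups were grown with 10% fetal bovine serum, and an mRNA library kit was used on 1.4 µg of total RNA per library. The treatment text writes Rib_CA where the sample names write Neoribocic, and both were read as 1 treatment. Its dose is unknown here. Whether the replicates were grown as separate cultures is not labelled, and a p-value therefore reflects only how far these libraries spread, possibly for technical reasons.

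Primase lays down a short RNA primer and DNA polymerase alpha, which works in 1 complex with it, extends that primer with a little DNA. PCNA, a ring of identical subunits, is then loaded around the duplex and tethers the enzymes that do most of the synthesis: polymerase epsilon mainly on the leading strand and polymerase delta mainly on the lagging strand. POLA1, PRIM1, POLD1 and POLE carry the catalytic sites, whereas POLA2, PRIM2, POLD2, POLD3 and POLE2 are non-catalytic or accessory subunits that hold the complexes together and link them to other fork proteins. Many of these genes are known targets of E2F transcription factors and are expressed most strongly around S phase. In bulk RNA, fewer cells in S phase and less RNA per cell cannot be told apart.

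To show the sequence upstream of some of these genes, the promoters of POLA1, POLE2, PCNA and POLD2 are given. POLA1 had the largest fall, POLE2 is a polymerase epsilon subunit and PCNA is the clamp. POLD2 stood higher with Neoribocic but did not pass the edgeR test described below. Each is 300 bases of the RefSeq sequence of GRCh38.p14, from 250 bases before to 50 after a transcript start, 5′ to 3′ on the gene's strand; capitals mark matches to the E2F consensus (TTTCCCGC, TTTCGCGC, TTTGCCGC or TTTGGCGC) or to the CCAAT box (CCAAT), on either strand.
POLA1, chrX:24693668-24693967, plus strand: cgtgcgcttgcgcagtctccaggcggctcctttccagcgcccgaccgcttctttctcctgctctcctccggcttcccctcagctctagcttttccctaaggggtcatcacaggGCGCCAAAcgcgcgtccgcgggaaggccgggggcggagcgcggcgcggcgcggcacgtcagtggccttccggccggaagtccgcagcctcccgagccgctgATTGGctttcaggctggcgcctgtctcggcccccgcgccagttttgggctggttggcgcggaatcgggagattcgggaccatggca
POLE2, chr14:49688165-49688464, minus strand: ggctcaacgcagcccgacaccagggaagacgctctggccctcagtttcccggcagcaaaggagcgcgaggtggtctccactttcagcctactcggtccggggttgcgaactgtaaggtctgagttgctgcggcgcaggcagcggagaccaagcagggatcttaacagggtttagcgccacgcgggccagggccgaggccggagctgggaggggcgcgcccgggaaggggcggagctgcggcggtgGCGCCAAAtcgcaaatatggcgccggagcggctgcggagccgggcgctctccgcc
PCNA, chr20:5126573-5126872, minus strand: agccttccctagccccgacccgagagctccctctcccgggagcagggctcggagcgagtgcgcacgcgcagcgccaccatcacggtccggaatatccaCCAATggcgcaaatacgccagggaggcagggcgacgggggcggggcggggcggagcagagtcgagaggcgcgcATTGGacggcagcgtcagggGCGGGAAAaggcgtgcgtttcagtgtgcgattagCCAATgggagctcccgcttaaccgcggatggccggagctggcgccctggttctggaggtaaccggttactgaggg
POLD2, chr7:44123499-44123798, minus strand: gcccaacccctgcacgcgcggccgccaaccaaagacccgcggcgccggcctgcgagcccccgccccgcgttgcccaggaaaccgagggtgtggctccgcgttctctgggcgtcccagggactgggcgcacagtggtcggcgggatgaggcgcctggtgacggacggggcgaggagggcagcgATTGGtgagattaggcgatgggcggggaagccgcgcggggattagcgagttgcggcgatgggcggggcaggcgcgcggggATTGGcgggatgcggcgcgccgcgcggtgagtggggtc

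In the POLA1 window the E2F match, TTTGGCGC read on the opposite strand, began 137 bases before the start. In the POLE2 window a match with the same letters began 5 bases before the start, and in the PCNA window TTTCCCGC began 59 bases before it, again on the opposite strand. The POLD2 window had 0 E2F matches and 2 CCAAT boxes. RefSeq windows were found for 9 of the 10 genes, 12 windows in all because PRIM2, POLD1 and PCNA had 2 starts each; POLD3 had none. An E2F match lay in a window of 5 of these 9 genes, POLA1, POLA2, POLE, POLE2 and PCNA, and in 5 of the 12 windows, against 3.31% of 35116 promoter windows of the same length. Of the genes with a match, POLA1, POLE, POLE2 and PCNA were called lower in the edgeR fit and POLA2 did not pass. Of the genes without a match, PRIM2 was called lower, and PRIM1, POLD1 and POLD2 did not pass. A CCAAT box lay in 6 of the 12 windows, those of 5 genes, against 34.6% of all promoter windows. The cell cycle element CHR (TTTGAA) lay in 0 of the 12 windows, against 15.2% of all promoter windows. No match of 1 motif overlapped a match of another in these windows. The second PCNA window, at a start further downstream, had 0 E2F matches and 2 CCAAT boxes. These matches describe letters in the reference sequence and were not tested for binding or function.

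With Neoribocic, 6 of the 10 genes fell, none rose, and 4 did not pass the test. The largest fall was that of POLA1, 7.73-fold, followed by POLE2, POLD3 and PCNA at 2.51-, 2.39- and 1.98-fold, POLE at 1.76-fold and PRIM2 at 1.62-fold. Calls are edgeR quasi-likelihood tests with an adjusted p below 0.05 (Benjamini-Hochberg, over all 13879 genes tested). By that rule 40.4% of all tested genes were called, 21.3% lower and 19.1% higher (2960 and 2650 genes), and with library totals as the only scaling 2149 were called lower and 3168 higher, with the median log2 fold change of all genes at 0.18. The median log2 fold change of the 10 genes was -0.76, against 0.01 over all tested genes. In 9 of the 10 genes both Neoribocic libraries lay below both DMSO libraries, and in POLD2 both lay above; over all tested genes 37.3% lay below and 37.8% above, 75.1% in all. Levels are TMM-scaled CPM, each gene's counts relative to its library's total over the tested genes after TMM scaling. Log2 fold changes are Neoribocic minus DMSO, and errors of means are SDs over 2 libraries.

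**Figure D1:**
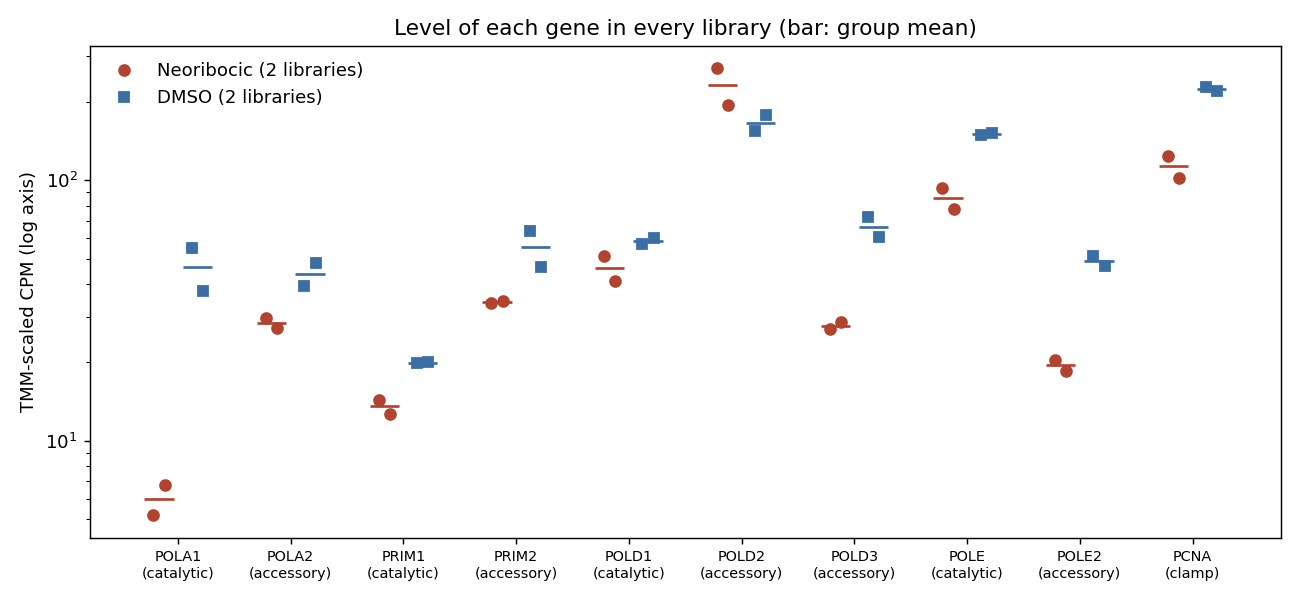
TMM-scaled CPM (vertical, log axis) of each of the 10 genes in every library, circles for Neoribocic and squares for DMSO, with a bar at each group mean. POLA1 shows the widest gap between the groups, with 5.18 and 6.80 CPM in Neoribocic libraries, and POLD2 is the gene with both treated libraries on top.

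Log2 fold changes in these data followed transcript properties across 13862 genes, with a Spearman correlation of -0.40 with transcript length and 0.45 with GC content; genes are not independent replicates. A change corrected for both is therefore given as "corrected" beside each of the 10 genes and the other named genes. It was computed by removing from each library a smooth surface of log2 CPM over length and GC content of 1 transcript per gene. With the correction 8 of the 10 genes were called lower and 0 higher, against 19.5% and 16.7% of all genes (36.1% in either direction), and the median of the 10 was -0.77. The genes themselves spanned 1359 to 7840 bases and 40.1% to 64.8% GC.

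Within the polymerase alpha-primase complex the catalytic polymerase subunit and its partners differed in size of change. POLA1 (ENSG00000101868, chromosome X), which extends the RNA primer, had 5.18 and 6.80 CPM in Neoribocic replicates 1 and 2, against 55.2 and 37.6 CPM in DMSO replicates 1 and 2. These rest on 220 and 323 counts in the Neoribocic libraries and 1957 and 1232 in the DMSO libraries, and the groups lie far apart although each is itself uneven. Its log2 fold change was -2.95 (SE 0.29, edgeR adjusted p = 0.000629; corrected -2.28), and 0.793% of all tested genes had a lower one. The 2 Neoribocic libraries differed by 0.39 and the 2 DMSO libraries by -0.55 in log2 CPM, replicate 2 minus replicate 1. Without each library in turn the change stayed between -3.19 and -2.65 and past the threshold.

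POLA2 (ENSG00000014138, chromosome 11), the B subunit that tethers the catalytic subunit to the fork, had 29.7 and 27.1 CPM in Neoribocic libraries, against 39.2 and 48.0 CPM in DMSO libraries. Both treated libraries were below both controls, but the log2 fold change of -0.62 (95% interval -1.12 to -0.11) did not pass (edgeR adjusted p = 0.0538). It passed with the correction (-0.74, adjusted p = 0.0147) and with DESeq2 (-0.61, adjusted p = 0.0316). GENCODE 29 places 35.1% of POLA2 exon bases also in AP000944.2 on the same strand, a gene with no row in the table, and how such reads were counted is not stated.

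PRIM1 (ENSG00000198056, chromosome 12), the catalytic subunit that makes the RNA primer, had 14.4 and 12.7 CPM in Neoribocic libraries, against 19.88 and 20.03 CPM in DMSO libraries. The groups did not overlap, and the log2 fold change of -0.56 (95% interval -1.07 to -0.05) did not pass (edgeR adjusted p = 0.0754), although it did with the correction (-0.58, adjusted p = 0.0444). Its exons share 16.2% of their bases with AC117378.1 and NACA on the same strand and 5.42% with HSD17B6 on the other.

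PRIM2 (ENSG00000146143, chromosome 6), the large primase subunit that holds an iron-sulphur cluster, had 33.8 and 34.5 CPM in Neoribocic libraries, against 64.0 and 46.6 CPM in DMSO libraries. The treated libraries were close together and the controls spread out. Its fall of 0.69 on the log2 scale (edgeR adjusted p = 0.0415) was the least firm of the 6. The call was lost without Neoribocic replicate 1 or 2 or DMSO replicate 1 (adjusted p = 0.157, 0.118 and 0.216), with upper-quartile factors (0.0704) or library totals (0.170), and with the correction (-0.44, adjusted p = 0.0800).

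**Figure D2:**
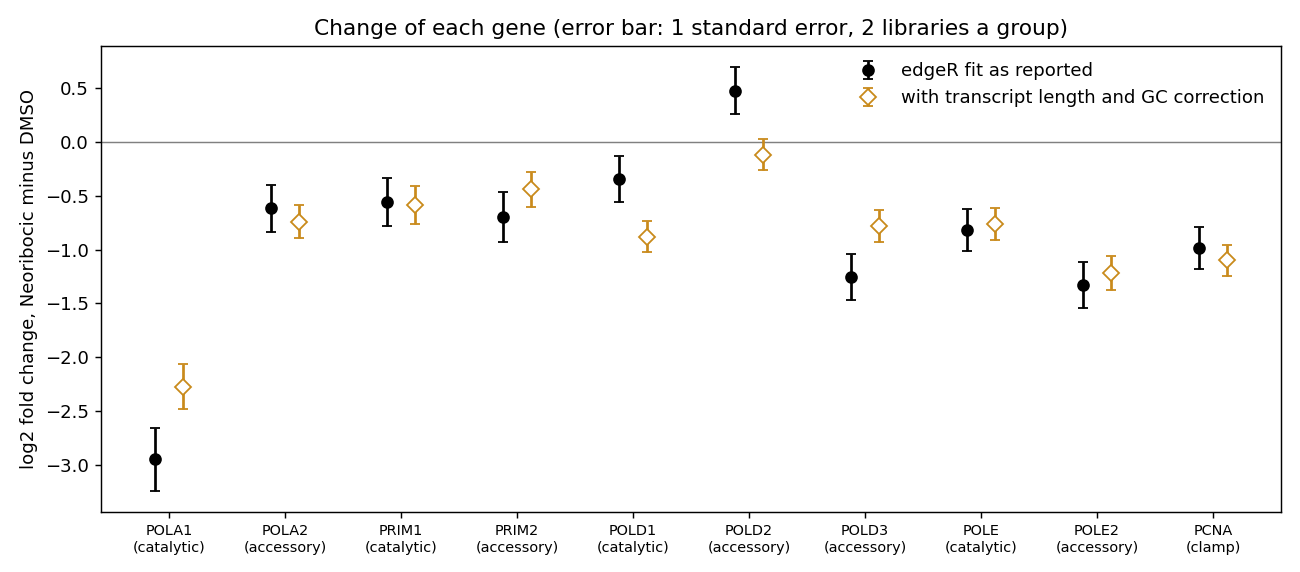
Log2 fold change of each gene, Neoribocic minus DMSO (vertical), with error bars of 1 standard error, as filled circles for the edgeR fit and open diamonds for the fit corrected for transcript length and GC content. POLD1 moves down and POLA1, POLD3, PRIM2 and POLD2 move towards 0 or past it with the correction, PRIM2 to -0.44 and POLD2 to -0.12.

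In polymerase delta 1 of the 3 subunits listed here was called lower, and with the correction POLD1 was called lower as well. POLD3 (ENSG00000077514, chromosome 11), an accessory subunit that binds PCNA, had 26.9 and 28.5 CPM in Neoribocic libraries, against 72.1 and 60.5 CPM in DMSO libraries. It fell by 1.26 on the log2 scale (SE 0.21, edgeR adjusted p = 0.00309), and its corrected change was -0.78 (adjusted p = 0.0115). Its highest adjusted p with 1 library left out was 0.0278, without Neoribocic replicate 1.

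POLD1 (ENSG00000062822, chromosome 19), the catalytic and proofreading subunit, had 51.0 and 40.9 CPM in Neoribocic libraries, against 56.9 and 59.9 CPM in DMSO libraries. The treated libraries lay just below the controls, at a log2 fold change of -0.35 (95% interval -0.83 to 0.14) that did not pass (edgeR adjusted p = 0.219). POLD1 has the most GC-rich transcript of the 10, at 64.8%, and with the correction it was called lower, at -0.88 (SE 0.14, adjusted p = 0.00711). Its exons share 8.64% of their bases with AC020909.1 on the same strand, which has its own row. Which of the fits is nearer to the change in the cells was not tested.

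POLD2 (ENSG00000106628, chromosome 7), the small scaffold subunit between POLD1 and POLD3, had 269 and 194 CPM in Neoribocic libraries, against 154 and 178 CPM in DMSO libraries. It was the gene of the 10 with both treated libraries above both controls, by a margin smaller than the gap within each group. The log2 fold change of 0.48 (95% interval -0.02 to 0.98) did not pass (edgeR adjusted p = 0.111); it passed with library totals as the only scaling (0.65, adjusted p = 0.0392, where the median of all genes was 0.18) and turned to -0.12 with the correction. GENCODE 29 names 1 pseudogene of POLD2, which has no row in the table.

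Polymerase epsilon fell in both of its subunits listed here. POLE (ENSG00000177084, chromosome 12), the catalytic and proofreading subunit, had 93.7 and 77.8 CPM in Neoribocic libraries, against 149 and 152 CPM in DMSO libraries. Its log2 fold change was -0.82 (SE 0.19, edgeR adjusted p = 0.0118; corrected -0.76), and the call was lost without Neoribocic replicate 2 (-0.69, adjusted p = 0.0694). POLE2 (ENSG00000100479, chromosome 14), the B subunit that joins the catalytic subunit to the replicative helicase, had 20.5 and 18.5 CPM in Neoribocic libraries, against 51.3 and 46.7 CPM in DMSO libraries. Replicates agreed closely in both groups, and POLE2 fell by 1.33 (SE 0.22, edgeR adjusted p = 0.00267), or by 1.22 with the correction.

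PCNA (ENSG00000132646, chromosome 20), the sliding clamp, had 124 and 102 CPM in Neoribocic libraries, against 228 and 219 CPM in DMSO libraries. It fell by 0.98 on the log2 scale (SE 0.19, edgeR adjusted p = 0.00560), or by 1.10 with the correction, and without each library in turn its adjusted p did not exceed 0.0375. GENCODE 29 names 3 PCNA pseudogenes, none of which has a row in the table, so how reads from near-identical copies were assigned is not known.

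Set side by side per length, as CPM per kb of 1 GENCODE transcript, the 10 genes spanned a wide range. In Neoribocic libraries POLD2 (107 ± 24.6) and PCNA (83.3 ± 11.6) stood above the rest, with overlapping ranges. They were followed by PRIM2 (14.8 ± 0.211), POLD1 (13.3 ± 2.08), POLE2 (11.0 ± 0.810), POLE (10.9 ± 1.43), PRIM1 (9.74 ± 0.834), POLA2 (7.59 ± 0.504), POLD3 (7.25 ± 0.306) and, lowest, POLA1 (1.09 ± 0.209). Of these neighbours, PRIM2 and POLD1, POLE2 and POLE, POLE and PRIM1, and POLA2 and POLD3 had overlapping libraries. In DMSO libraries PCNA came first (165 ± 4.66) and POLD2 second (76.9 ± 7.94), then POLE2 (27.6 ± 1.84), PRIM2 (24.0 ± 5.35), POLE (19.2 ± 0.272), POLD3 (17.4 ± 2.14), POLD1 (16.96 ± 0.612), PRIM1 (14.3 ± 0.0772), POLA2 (11.6 ± 1.66) and POLA1 (8.45 ± 2.27). There POLE2 overlapped PRIM2 and POLD3 overlapped POLD1. POLA1 was thus the lowest of the 10 in both groups, and PCNA and POLD2 exchanged the first place.

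Catalytic and accessory subunits were compared as a ratio within each library, which does not depend on how libraries are scaled. POLA1 stood at 0.119 and 0.172 times POLA2 per kb in Neoribocic libraries, against 0.961 and 0.535 times in DMSO libraries, a difference of -2.33 in the log2 ratio, or -1.52 with the correction. POLD1 over POLD2 was 0.119 and 0.132 in Neoribocic libraries, against 0.232 and 0.211 in DMSO libraries (-0.82, corrected -0.76). In both pairs the catalytic subunit was lower relative to its partner in every treated library than in every control. POLE over POLE2 went the other way, with 1.03 and 0.953 in Neoribocic libraries, against 0.659 and 0.739 in DMSO libraries (0.51, corrected 0.46). POLD1 over POLD3 was 2.11 and 1.59 in Neoribocic libraries, against 0.876 and 1.10 in DMSO libraries (0.90), a difference that the correction turned to -0.10. PRIM1 over PRIM2 overlapped between the groups, with 0.705 and 0.612 in Neoribocic libraries, against 0.515 and 0.713 in DMSO libraries (0.12, corrected -0.15). An exact two-sided permutation test over the libraries gave p = 0.333 for the 4 pairs that did not overlap and p = 1 for PRIM1 over PRIM2. With 2 libraries a group, 0.333 is the smallest p it can give, so none of the 5 pairs could pass.

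**Figure D3:**
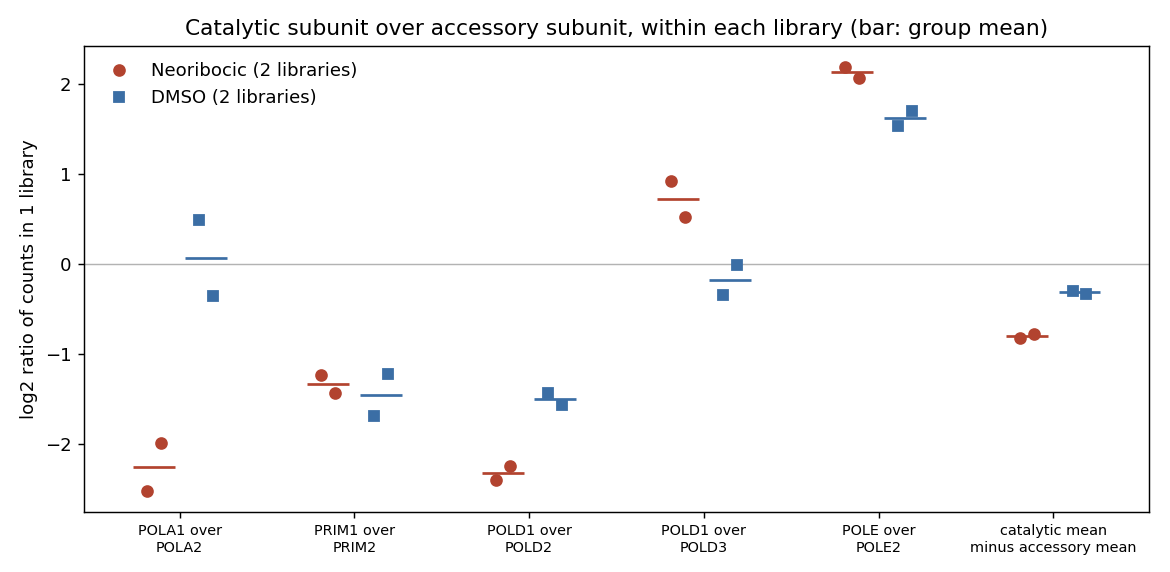
Log2 ratio of the counts of a catalytic subunit to those of an accessory subunit in each library (vertical), circles for Neoribocic and squares for DMSO, with a bar at each group mean; the last position is the mean log2 level of the 4 catalytic genes minus that of the 5 accessory genes. The POLA1 over POLA2 ratio differs most between the groups, and PRIM1 over PRIM2 overlaps.

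As classes, 2 of 4 catalytic genes and 3 of 5 accessory genes were called lower, against 21.3% of all tested genes, with median log2 fold changes of -0.69 and -0.69. With the correction 4 of 4 catalytic and 3 of 5 accessory genes were called lower, against 19.5% of all genes, with medians of -0.82 and -0.74. The mean log2 level of the catalytic genes minus that of the accessory genes was -0.82 and -0.78 in Neoribocic libraries, against -0.29 and -0.34 in DMSO libraries, a difference of -0.49 (exact permutation p = 0.333; corrected -0.46). Leaving out each of the 9 genes in turn, an alternative chosen after the values were seen, moved it most for POLA1 and POLD2. Without POLA1 the difference was 0.10 and the libraries of the groups overlapped (exact permutation p = 0.667), and without POLD2 it was -0.20. Without each of the other genes it lay between -0.76 and -0.47.

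The remaining subunits of the replicative polymerases, POLD4, POLE3 and POLE4, were described as a list of their own. POLD4, the smallest polymerase delta subunit, whose protein is degraded after DNA damage, had 52.0 and 37.1 CPM in Neoribocic libraries, against 10.6 and 16.2 CPM in DMSO libraries. It rose by 1.74 on the log2 scale (SE 0.29, edgeR adjusted p = 0.00305), or by 0.70 with the correction (adjusted p = 0.0424); its transcript is short and GC-rich, with 918 bases and 61.3% GC, and 21.3% of its exon bases lie in AP003419.1 on the same strand. POLE4, a histone-fold subunit of polymerase epsilon, rose by 0.80 (edgeR adjusted p = 0.0359), a call lost without Neoribocic replicate 1 or DMSO replicate 1 or 2 (0.215, 0.0697 and 0.136) and with the correction (0.33, adjusted p = 0.231). POLE3, its histone-fold partner, named after its values were seen, had 179 and 56.4 CPM in Neoribocic libraries, against 175 and 282 CPM in DMSO libraries, and did not pass (-0.96, edgeR adjusted p = 0.282; corrected -0.89). Without the correction, polymerase delta held 1 subunit called lower (POLD3), 1 called higher (POLD4) and 2 that did not pass. Over all tested genes 21.3% were called lower and 19.1% higher. With the correction POLD1 and POLD3 were called lower, POLD4 was called higher and POLD2 did not pass (-0.12), against 19.5% and 16.7% of all genes.

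Among 9 clamp loader and unloader genes, which put PCNA on DNA or take it off, 3 fell and 2 rose. Their median log2 fold change was -0.44, and over all tested genes 21.3% were called lower and 19.1% higher. With the correction 4 of the 9 fell and 0 rose, against 19.5% and 16.7% of all genes, and the list median was -0.29. ATAD5, which unloads PCNA, fell by 1.65 (corrected -0.79), RFC1, the large subunit of the main clamp loader, by 1.49 (corrected -0.83), and DSCC1, of an alternative loader, by 1.27 (corrected -1.02). The small loader subunits RFC2, RFC3, RFC4 and RFC5, named after their values were seen, did not pass, at log2 fold changes of 0.18, -0.49, -0.44 and -0.20. Their corrected changes were -0.29, -0.21, -0.53 and -0.25, of which that of RFC4 passed (edgeR adjusted p = 0.031). CHTF8 and CHTF18, which work with DSCC1 in the alternative loader, rose by 0.80 and 0.82, but both calls were lost without Neoribocic replicate 1 or DMSO replicate 1 or 2 (edgeR adjusted p = 0.0710 to 0.118 for CHTF8 and 0.0701 to 0.143 for CHTF18) and with the correction (0.51 and 0.19).

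Of 14 replication fork factors 8 fell and 0 rose, against 21.3% and 19.1% of all tested genes. The list median was -0.84 (corrected -0.75). MCM10, which helps to start the helicase, had 18.1 and 20.9 CPM in Neoribocic libraries, against 74.4 and 74.3 CPM in DMSO libraries (-1.93, corrected -1.76). CLSPN, the checkpoint mediator claspin, fell by 2.19 (corrected -1.71), and WDHD1, which links polymerase alpha to the helicase, fell by 1.83 (corrected -1.02). RPA3, the smallest subunit of the single-strand binding protein, had 99.3 and 34.4 CPM in Neoribocic libraries, against 27.3 and 20.4 CPM in DMSO libraries, and did not pass (1.49, edgeR adjusted p = 0.0792; corrected 1.55); it was named after its values were seen. Of 7 genes for flap cutting, primer removal and ligation 3 fell and 0 rose, against the same shares of all genes. Their median was -0.45. With the correction 5 of the 7 fell, against 19.5% of all genes, and their median was -0.78. The flap endonuclease FEN1 (-0.55, edgeR adjusted p = 0.0403) and the ligase LIG1 (-0.87, adjusted p = 0.00812), named after their values were seen, then passed as well. EXO1, an exonuclease, fell by 1.71 (corrected -1.26), DNA2, a nuclease of long flaps, by 1.39 (corrected -0.78) and RNASEH2B, a subunit of the RNase that removes primer RNA, by 0.95 (corrected -1.02). The RNASEH2B call did not hold when Neoribocic replicate 1, Neoribocic replicate 2 or DMSO replicate 1 was left out (edgeR adjusted p = 0.0712, 0.0602 and 0.0716) and with library totals (0.0581).

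Among 10 partners and modifiers of PCNA 8 fell and 0 rose, against 21.3% and 19.1% of all tested genes. The list median was -1.33, or -0.89 with the correction. UHRF1, which guides maintenance of DNA methylation behind the fork, fell by 1.57 (corrected -1.94); 1 named pseudogene of it has its own row, so reads may be split. HLTF and RAD18, ubiquitin ligases that act on PCNA, fell by 2.24 and 1.72 (corrected -1.48 and -0.97). PCLAF, a small PCNA-binding protein named after its values were seen, overlapped between the groups, with 65.5 and 46.1 CPM in Neoribocic libraries, against 76.6 and 41.5 CPM in DMSO libraries (-0.08, corrected 0.17).

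The 14 other DNA polymerase genes, for repair, mitochondrial and translesion synthesis, held 2 that fell and 3 that rose, with a median of 0.05. Over all tested genes 21.3% fell and 19.1% rose, shares that these counts are near. With the correction 1 of the 14 fell and 3 rose, against 19.5% and 16.7% of all genes, and the list median was 0.19. REV3L, the catalytic subunit of translesion polymerase zeta, which shares POLD2 and POLD3 with polymerase delta, fell by 2.06 (corrected -1.01). Its partner MAD2L2 rose by 1.22 (corrected 0.42), a call lost with the correction (edgeR adjusted p = 0.103) and without Neoribocic replicate 1 (0.0554). POLL, an end-joining polymerase, rose by 1.48 (corrected 0.99) and POLB, the base excision repair polymerase, by 0.74 (corrected 0.66), while POLH, of translesion synthesis, fell by 0.64 (corrected -0.41). The POLB and POLH calls were lost without any 1 of the 4 libraries, at edgeR adjusted p = 0.0510 to 0.140 for POLB and 0.0866 to 0.161 for POLH. POLH also lost its call with the correction (0.0614), upper-quartile factors (0.0771) and library totals (0.206).

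**Figure D4:**
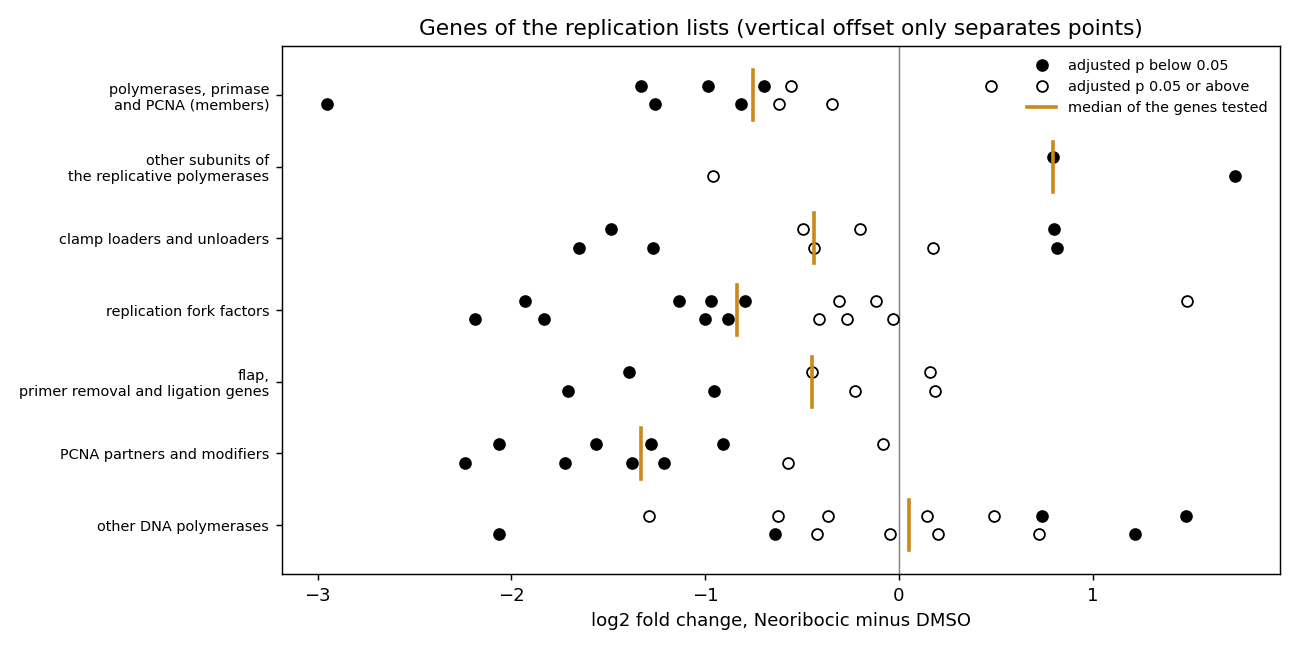
Log2 fold change, Neoribocic minus DMSO (horizontal), of each tested gene in the 10 genes described here and in the 6 replication lists (rows), filled where the adjusted p was below 0.05, with a bar at the median of each row. The PCNA partners lie furthest to the left as a list, and the other DNA polymerases lie on both sides of 0.

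Over the 4 libraries, the patterns nearest to POLA1 among the 57 list genes were those of HLTF, CLSPN and REV3L, with Euclidean distances of 1.01, 1.22 and 1.26 in log2 CPM centred on the DMSO mean. Nearest to PCNA were CHAF1A, a subunit of the chromatin assembly factor that binds PCNA, CDC45, a helicase subunit, and RPA1, the large subunit of the single-strand binding protein, at 0.158, 0.186 and 0.266. Their log2 fold changes were -0.91, -0.97 and -1.003, beside -0.98 for PCNA, and their corrected changes -1.22, -1.21 and -0.74, beside -1.10; the CDC45 call was lost without Neoribocic or DMSO replicate 2 (edgeR adjusted p = 0.0627 and 0.0557). Such a distance takes in the size of the change, so genes near PCNA have changes close to its own by selection. The largest fall among the 57 was that of HLTF (-2.24), smaller than that of POLA1 (-2.95). For that reason none of the 57 could come very near to POLA1, and none came as near to it as CHAF1A, CDC45 and RPA1 came to PCNA.

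**Figure D5:**
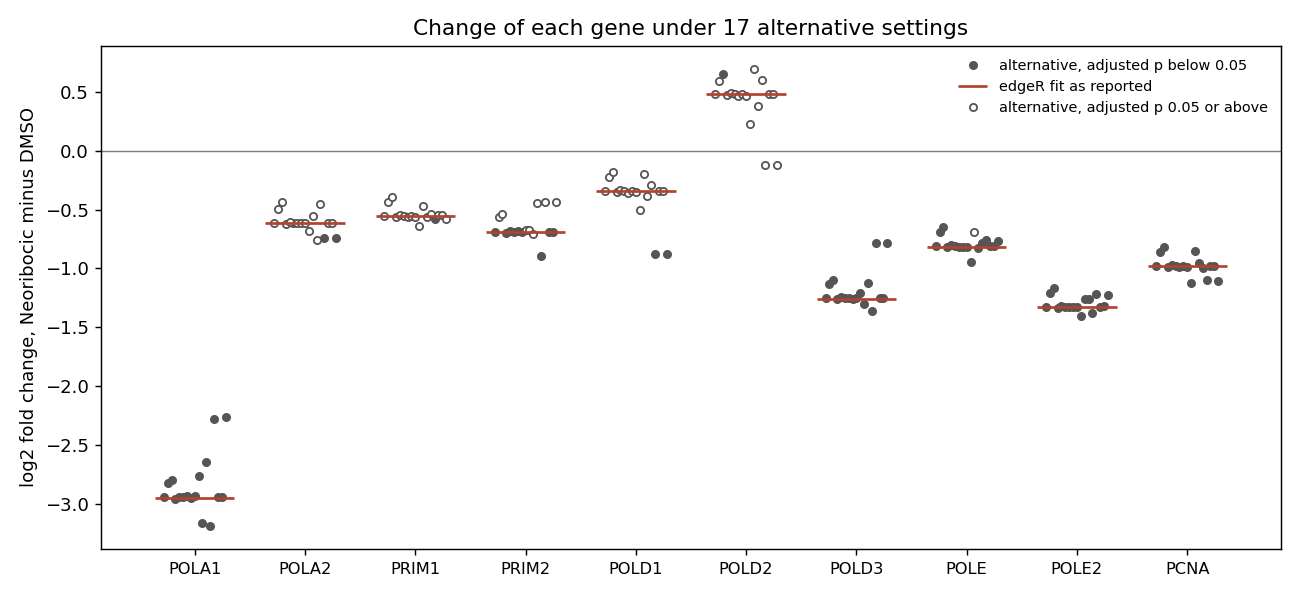
Log2 fold change of each gene, Neoribocic minus DMSO (vertical), under each of 17 alternative settings as points, filled where the adjusted p was below 0.05, with a line at the edgeR fit. POLA1, POLD3, POLE2 and PCNA are filled throughout, PRIM2 in part, and POLD2 crosses 0.

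As checks on the libraries, replicates correlated at 0.977 (Neoribocic) and 0.968 (DMSO) on log2 CPM across genes. Between replicates 68.5% and 73.3% of genes differed by more than counting noise (chi-square p below 0.05), so no library was a copy of another. Expected counts were taken from library totals without TMM, so these shares also take in differences in composition, such as those in mitochondrial counts. Mitochondrially encoded genes held 5.76% and 7.24% of counts in Neoribocic libraries, against 8.68% and 21.7% in DMSO libraries. With these genes left out, again 6 of the 10 genes were called lower, against 2949 of all 13866 genes. All 8 markers of this mesenchymal line were above 1 CPM in every library, with a summed level of 7696 to 8055 CPM in Neoribocic libraries, against 9694 to 11600 CPM in DMSO libraries. Of 10 markers of luminal or HER2 lines 7 were above 1 CPM in every library. The 10 summed to 903 to 1195 CPM in Neoribocic libraries, against 809 to 994 CPM in DMSO libraries. Most of these sums came from KRT8, KRT19, KRT18 and ERBB2, with means of 418.5, 352.1, 155.5 and 99.18 CPM in Neoribocic libraries. Their means in DMSO libraries were 295.7, 230, 270.6 and 70.76 CPM. ESR1 and CDH1 did not exceed 0.649 and 0.141 CPM. The 5 markers of immune, endothelial and stromal cells summed to 6.38 to 7.03 CPM in Neoribocic libraries, against 9.18 to 9.19 CPM in DMSO libraries. Most of these sums was COL1A1, at 5.84 and 6.42 CPM in Neoribocic libraries, against 7.36 and 8.08 CPM in DMSO libraries, and CD3E was at 0 in all. The part of these marker differences in the results was not tested.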

How the data were processed

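RNA of 2 Neoribocic and 2 DMSO libraries was compared. The table the authors deposited holds unnormalized read counts for each Ensembl ID. The aligner, counter, strand setting and annotation were all not given in the sources used here. GRCm38 and mm10, both mouse builds, are named in the submitters' processing notes, although the IDs are human, so no coordinates are given for the count data. Of 20263 IDs, 20148 had an entry in the table of gene names and 20224 in GENCODE release 29, which gave transcript length, GC content and shared exons. Among counts below 20, 62.3% to 65.4% were even, against 50.3% to 51.3% of counts from 20 to 200; halved counts were therefore tried as an alternative.

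Genes were filtered with filterByExpr by group, scaled by TMM and tested with a robust quasi-likelihood fit in edgeR 4.0.16 (R 4.3.3), group as the only term, Benjamini-Hochberg adjusted over all 13879 genes, threshold 0.05. The SE is the size of the log2 fold change divided by the square root of F, and 95% intervals use the fit's degrees of freedom. Subunit ratios used counts with a prior count of 0.5. The correction for length and GC content used mgcv 1.9.3. The fit was tested on simulated data. Alternatives were RLE and upper-quartile factors, library totals, 2 other filters, DESeq2 1.42.0, limma-voom (limma 3.58.1), no robust option, a replicate block, each library left out, the correction, halved counts, and no mitochondrial genes; the block together with the correction, and leaving each gene out of its subunit class, were added after the data were seen.

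Named genes are the 10 members, up to 3 genes per direction with the smallest p from each list, the 3 nearest patterns to POLA1 and PCNA; genes outside this rule are said to be named after their values were seen. The members and lists were chosen with earlier results of these data known.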

Additional observations from a re-analysis of the deposited data

How the results depend on the processing

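With Neoribocic against DMSO, the count of the 10 genes called lower lay between 5 and 8 over the alternatives that kept all 4 libraries. The 8 came with the correction, against 2700 of all 13862 genes, and the counts of 5 are set beside those of all genes further down. The count called higher was 0 in these alternatives except with library totals as the only scaling. There it was 1 (POLD2), against 3168 of all 13879 genes. Fits with 1 library left out leave 1 library in a group, and PRIM2 and POLE lost calls among them. POLA1, POLD3, POLE2 and PCNA kept their calls in every alternative. POLD2 turned to -0.12 with the length and GC correction, and to -0.12 when the replicate block was added to it. The correction also turned the log2 ratio of PRIM1 over PRIM2 to -0.15 and that of POLD1 over POLD3 to -0.10, and leaving out each library moved PRIM1 over PRIM2 between -0.12 and 0.35; the cause was not tested. The other ratios kept their sign, that of POLA1 over POLA2 standing at -1.52 with the correction, against -2.33 without it. No label says that a replicate number marks a batch shared by the groups. The difference between replicates correlated at -0.035 across genes between the groups, and whether a batch was shared was not tested. With the replicate block 5 of the 10 genes were called lower, against 2917 of all 13879 genes, PRIM2 standing at an edgeR adjusted p of 0.0538. With the block and the correction 7 of the 10 were called lower, against 2666 of all 13862 genes. POLB and POLH had adjusted p-values of 0.0509 and 0.0684 with the block. Without Neoribocic replicate 1 the fit called 2583 genes in all, against 5610 with every library. The median log2 fold change of all genes was 0.13 under upper-quartile scaling and 0.18 under library totals, against 0.01 with TMM. The count of all 13879 genes called lower moved with the setting too. It was 2149 with library totals, 2532 with upper-quartile factors and 3105 with DESeq2, against 2960 in the fit as reported. In these alternatives 5, 5 and 7 of the 10 genes were called lower.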
